A study of Saccharomyces cerevisiae with 8 samples.

Results

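The response of Saccharomyces cerevisiae to alkali was compared between a strain that overexpresses the polyphosphatase gene PPN2 and its parent, gene by gene, as the KOH effect in one minus that in the other. All 8 libraries of the series entered one model, with 4 groups of 2 libraries, and the genes described are the 2156 of 5430 tested whose KOH effect differed between the strains by that model, sorted by how it differed. CRN/PPN2 +KOH and CRN/PPN2 YPD are cultures of CRN carrying the centromeric plasmid pMB1_PPN2, which bears URA3 and expresses PPN2 from the constitutive TDH3 promoter. CRN +KOH and CRN YPD are cultures of the parent CRN (MATa ade2 his3 ura3 ppn1Δ::CgTRP1), which the sample titles call wild type although it lacks the polyphosphatase gene PPN1. Both strains therefore lack PPN1. The +KOH cultures grew in rich YPD medium with 20 mM KOH and the YPD cultures without it, all at 29 °C and, per the labels, to the logarithmic stage. Cells were taken at 25 h from CRN/PPN2 +KOH, at 40 h from CRN +KOH, and at 16 h from both YPD groups. The CRN/PPN2 +KOH cells were lysed at once in Trizol LS, whereas CRN/PPN2 YPD, CRN +KOH and CRN YPD cells were kept frozen and then homogenized in a French press. The paper's growth methods also give a wash with sorbitol for the CRN/PPN2 +KOH cells only. An effect of PPN2 on the KOH response cannot be told apart from these differences in harvest time, washing and lysis. Nor can it be told apart from carrying the plasmid with its URA3, which the parent CRN lacks. The submitters describe the 2 libraries of a group as independent biological replicates, and replicates 1 and 2 of all groups were separate batches of preparation and sequencing.

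Yeast stores phosphate as polyphosphate, mostly in the vacuole, and Ppn1 and Ppn2 cut the inner bonds of its long chains. Alkaline medium weakens the proton gradient across the plasma membrane, which drives nutrient uptake, and lowers the availability of phosphate, iron and copper. The known response of this yeast runs through the Rim101 pathway, calcineurin, the PHO and iron regulons and the general stress factors Msn2 and Msn4.

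Reads were counted per gene, and values are given as CPM, the count per 1e6 counts of the library, scaled by TMM, which corrects for differences in library composition. The CRN/PPN2 +KOH libraries held 1559324 and 796548 counts, against 3844316 to 5004823 in the other 6. One count equalled 0.641 and 1.26 CPM in them, against 0.2 to 0.26 CPM elsewhere. The root mean square SD between their replicates was 0.308 on the log2 scale, against 0.165 to 0.214 in the other groups. PPN1 had 0 or 1 count in every library. PPN2 had 5997 and 6135 CPM in CRN/PPN2 +KOH and 6854 and 6468 CPM in CRN/PPN2 YPD, against 220.0 and 207 CPM in CRN +KOH and 215 and 206 CPM in CRN YPD. Its interaction value was -0.15 ± 0.19 (adjusted p = 0.55, edgeR's quasi-likelihood test), so its overexpression was not shown to change with KOH.

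The interaction value of a gene is the log2 ratio of KOH over YPD in CRN/PPN2 minus the same ratio in CRN, given with its standard error (SE). A positive value means a higher KOH effect in CRN/PPN2. A log2 value with its SE given below without an adjusted p is an interaction value that passed the test. Of 5430 genes tested, 2156 (39.7%) were called at 5% FDR by edgeR's quasi-likelihood test with Benjamini-Hochberg adjustment and the batch as a block. Of these, 1203 (22.2% of the genes tested) were higher and 953 (17.6%) lower. Without the replicate block 883 were higher and 614 lower, and 611 and 633 were lower without the first and second CRN +KOH library. An absolute value of 1 or more was reached by 869 called genes (16%), 652 higher (12%) and 217 lower (4%). With upper quartile factors in place of TMM the higher share of the calls was 44.5% in place of 55.8%, and the median of all genes was -0.09 in place of 0.02. Without the filter on low counts it was 48.4%, with 1089 higher and 1161 lower. The split between higher and lower calls thus moved with the scaling and the filter. Of the genes tested, 196 reached the filter's minimum only with the CRN/PPN2 +KOH libraries counted, where they were high, and 128 of these were called higher. The called genes whose interaction value is given below kept their direction with upper quartile factors, and all but VTC5 kept the call.

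The called genes were sorted by their KOH effect in each strain. KOH vs. YPD passed the test for 2972 genes in CRN/PPN2 (54.7%; 1586 up and 1386 down) and for 822 in CRN (15.1%; 409 up and 413 down). A response was gained, with a KOH effect called in CRN/PPN2 and not in CRN, in 1626 genes (75.4% of the 2156). It was amplified, called in both strains in one direction and larger in CRN/PPN2, in 147. It was lost, called in CRN and not in CRN/PPN2, in 141, damped to a smaller effect of the same direction in 33, and reversed in 102. The other 107 passed the interaction test without a called KOH effect in either strain. The scatter plot of both KOH effects shows these classes. The smaller classes depended on single libraries: amplified genes numbered 28 without the second CRN +KOH library and 268 without the second CRN/PPN2 +KOH library, lost genes 37 and 220, and reversed genes 16 and 182 under the same omissions. Every other single omission also moved the amplified count (30 to 224) and the reversed count (27 to 207) by over 1.5 times. Lost genes numbered 65 without the first CRN +KOH library and 67 and 51 without the first and second CRN YPD library, and damped genes 18 to 20 without any one CRN/PPN2 YPD or CRN +KOH library. Without the replicate block 53 were amplified, 72 lost, 20 damped and 28 reversed.

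**Figure D1:**
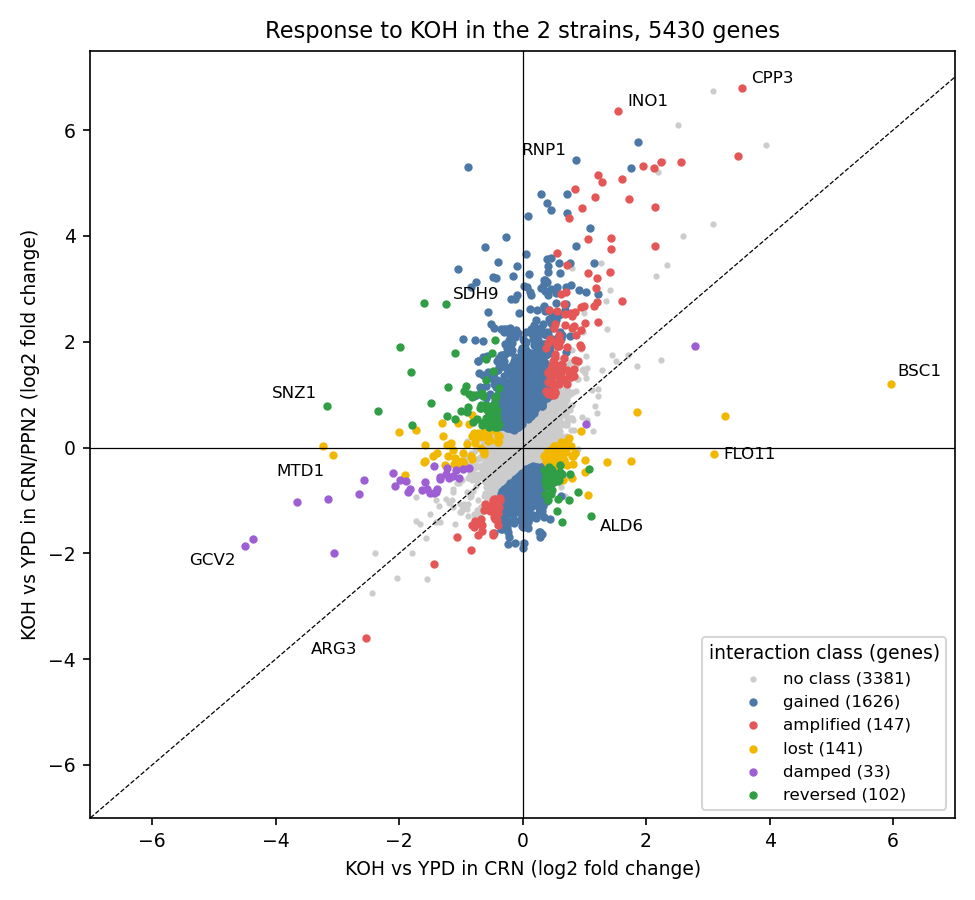
Each point is one of the 5430 genes tested, with its KOH vs. YPD log2 fold change in CRN on the horizontal axis and in CRN/PPN2 on the vertical axis, coloured by class. The gained genes form a vertical cloud near 0 in CRN, whereas the reversed genes lie in the quadrants of opposite sign and the lost genes near 0 in CRN/PPN2.

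Among the genes whose CRN response was called, the counts by direction were as follows. Of the 409 genes that KOH raised in CRN, 109 were amplified in CRN/PPN2, 79 lost, 2 damped and 38 reversed, and 181 were not called in the interaction. Of the 413 genes that it lowered in CRN, 38 were amplified, 62 lost, 31 damped and 64 reversed, and 218 were not called.

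Among genes of at least 20 CPM in the highest group with one sign in both replicates, the highest interaction value belonged to INO1, which makes inositol phosphate for phospholipid synthesis. INO1 had 368 and 628 CPM in CRN/PPN2 +KOH and 6.13 and 5.69 CPM in CRN/PPN2 YPD, against 22.6 and 28.3 CPM in CRN +KOH and 9.32 and 7.95 CPM in CRN YPD. The 4 groups did not overlap, and both CRN/PPN2 +KOH libraries stood far above all others. KOH raised INO1 by 6.36 on the log2 scale in CRN/PPN2 and by 1.55 in CRN, an interaction of 4.81 ± 0.37 (adjusted p = 4.48e-08, edgeR). The myo-inositol transporter gene ITR1 had 2029 and 2673 CPM in CRN/PPN2 +KOH and 584 and 598 CPM in CRN/PPN2 YPD, against 467 and 497 CPM in CRN +KOH and 525 and 559 CPM in CRN YPD. Only the CRN/PPN2 +KOH libraries were high, and the interaction was 2.15 ± 0.19. OPI3, a methyltransferase of phosphatidylcholine synthesis, had 671 and 774 CPM in CRN/PPN2 +KOH and 216 and 267 CPM in CRN/PPN2 YPD, against 141 and 208 CPM in CRN +KOH and 168 and 183 CPM in CRN YPD, and here too the CRN/PPN2 +KOH pair stood alone (interaction 1.61 ± 0.18). Of 18 genes of inositol and phospholipid synthesis tested, 7 were called higher and 2 lower, against 22.2% and 17.6% of all genes. The higher count was 4 without the second CRN +KOH library.

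The INO1 promoter is shown because the inositol regulon is read through a known element. CATGTG is the core of the element bound by Ino2 and Ino4, and GGCGGC that of the repressing element bound by Ume6. The stretch begins 250 bases before the start codon and runs 150 bases on the gene's strand, read from RefSeq's R64 genome, the build of the deposited counts (chrX:136034-136183, minus strand). Capitals mark matches on either strand, of which CACATG is CATGTG read on the other strand.
INO1: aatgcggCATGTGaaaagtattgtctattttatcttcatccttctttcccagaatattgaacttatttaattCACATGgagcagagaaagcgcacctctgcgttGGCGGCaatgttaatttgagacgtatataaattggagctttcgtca
CATGTG stood in 61.1% of the promoters of the inositol list and in 6.61% of all 5327 promoters searched, each window running from 250 bases before the start codon to 50 after it. This motif and GGCGGC were added to the search after the values were seen.

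Genes of the cell wall were called in both directions, 18 of 46 higher and 10 lower, against 22.2% and 17.6% of all genes. Of the 18 higher ones, 2 passed the filter only with the CRN/PPN2 +KOH libraries counted. The lower count was 4 without the replicate block and 4 to 6 without the second CRN/PPN2 YPD library or any one CRN library, whereas the higher one was 13 to 20 whichever library was left out. GSC2, a catalytic subunit of glucan synthase that calcineurin induces, had 1643 and 2324 CPM in CRN/PPN2 +KOH and 404 and 431 CPM in CRN/PPN2 YPD, against 491 and 515 CPM in CRN +KOH and 419 and 431 CPM in CRN YPD. The CRN/PPN2 +KOH libraries lay far above the 6 others, of which the YPD ones overlapped, and the interaction was 1.99 ± 0.20 (adjusted p = 9.66e-07, edgeR). CRH1, a transglycosylase that links chitin to glucan, had 1133 and 1533 CPM in CRN/PPN2 +KOH and 274 and 396 CPM in CRN/PPN2 YPD, against 383 and 447 CPM in CRN +KOH and 332 and 364 CPM in CRN YPD. Its CRN/PPN2 YPD levels overlapped both CRN groups, CRN +KOH lay above CRN YPD, and its interaction was 1.75 ± 0.19. The mannoprotein gene PIR3 had 247 and 295 CPM in CRN/PPN2 +KOH and 21.5 and 38.7 CPM in CRN/PPN2 YPD, against 39.3 and 54.8 CPM in CRN +KOH and 18 and 23 CPM in CRN YPD. KOH raised PIR3 in both strains, more in CRN/PPN2 (interaction 2.01 ± 0.23), although its CRN/PPN2 YPD and CRN +KOH levels lay close together. YPS3, a yapsin protease of the cell surface, had 119 and 151 CPM in CRN/PPN2 +KOH and 19.2 and 21.4 CPM in CRN/PPN2 YPD, against 26.8 and 33.8 CPM in CRN +KOH and 17 and 21.2 CPM in CRN YPD, and was likewise amplified (2.06 ± 0.23).

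Of 55 genes of meiosis and sporulation 36 passed the filter, 22 of them only with the CRN/PPN2 +KOH libraries counted, so that calls over this list follow in part from the filter and are not counted here. SPR28, SPO20 and LOH1 are among the 22. SPR28, a septin of sporulating cells, had 57.6 and 52.2 CPM in CRN/PPN2 +KOH and 4.49 and 2.35 CPM in CRN/PPN2 YPD, against 2.92 and 3.95 CPM in CRN +KOH and 5 and 3.53 CPM in CRN YPD. The CRN/PPN2 +KOH libraries lay above all 6 others, which overlapped, and the interaction was 4.26 ± 0.48 (adjusted p = 3.97e-06, edgeR). SPO20, a SNARE of the prospore membrane, had 46.2 and 52.2 CPM in CRN/PPN2 +KOH and 3.47 and 1.96 CPM in CRN/PPN2 YPD, against 3.45 and 4.17 CPM in CRN +KOH and 2.27 and 1.32 CPM in CRN YPD, with an interaction of 3.05 ± 0.60 (adjusted p = 0.000796, edgeR). LOH1 had 136 and 115 CPM in CRN/PPN2 +KOH and 4.7 and 4.32 CPM in CRN/PPN2 YPD, against 1.86 and 2.19 CPM in CRN +KOH and 1.59 and 0.883 CPM in CRN YPD, with an interaction of 4.07 ± 0.67. These levels rest on few counts, since 1 count was worth up to 1.26 CPM in CRN/PPN2 +KOH. SPO20 and LOH1 were no longer called when all libraries were thinned to the smallest total.

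The other genes with the highest interaction values, RNP1, YGL081W and PHO92, also passed the filter only with the CRN/PPN2 +KOH libraries counted. RNP1, which encodes an RNA-binding protein, had 70.9 and 70 CPM in CRN/PPN2 +KOH and 1.23 and 1.96 CPM in CRN/PPN2 YPD, against 2.92 and 2.85 CPM in CRN +KOH and 1.82 and 1.32 CPM in CRN YPD. Its interaction was 4.57 ± 0.65 (adjusted p = 3.97e-05, edgeR). YGL081W, of unknown function, had 50 and 87.7 CPM in CRN/PPN2 +KOH and 3.88 and 5.69 CPM in CRN/PPN2 YPD, against 3.99 and 4.6 CPM in CRN +KOH and 7.5 and 5.52 CPM in CRN YPD, with an interaction of 4.40 ± 0.45. PHO92, which encodes a reader of methylated RNA, had 60.7 and 70 CPM in CRN/PPN2 +KOH and 2.86 and 2.35 CPM in CRN/PPN2 YPD, against 2.66 and 1.32 CPM in CRN +KOH and 0.909 and 1.99 CPM in CRN YPD, with an interaction of 4.22 ± 0.71 (adjusted p = 0.000211, edgeR). In all 3 the CRN/PPN2 +KOH pair stood alone, and the other 6 libraries held under 8 CPM.

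Of 4 markers of the other mating type 3 were highest in CRN/PPN2 +KOH. The α-factor gene MF(ALPHA)1 had 15.8 and 19.0 CPM in CRN/PPN2 +KOH, against 0 to 1.33 CPM in the other 6 libraries. STE3, the a-factor receptor of α cells, had 13.9 and 19.0 CPM in CRN/PPN2 +KOH against 2.65 to 5.72 CPM in the other 6. Both genes reached the filter's 10 CPM only in the CRN/PPN2 +KOH libraries. They rested there on 25 and 16 counts for MF(ALPHA)1 and 22 and 16 for STE3. SAG1, the α-agglutinin, had 37.3 and 43.9 CPM in CRN/PPN2 +KOH against 15.9 to 24.1 CPM in the other 6. MF(ALPHA)2 was at 0 to 1.27 CPM in all 8. Their part in the result was not tested.

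The a-specific and pheromone genes of this MATa strain were called lower in 7 of 18 and higher in 3, and in 4 and 1 after thinning. Over all genes 17.6% were lower and 22.2% higher. Of these 18, 2 passed the filter only with the CRN/PPN2 +KOH libraries counted, and 1 of the 2 was called higher. STE2, the α-factor receptor of a cells, was present in every library, at 341 and 320.1 CPM in CRN/PPN2 +KOH and 494 to 757 CPM in the other 6. The a-cell markers BAR1 (89.2 and 83 CPM against 145.7 to 201.1) and AGA2 (22.1 and 28.5 against 32.4 to 44.7) were also lowest there. The a-factor genes did not share this fall. MFA1 had 51.9 and 34.4 CPM in CRN/PPN2 +KOH against 26.6 to 70.1 CPM in the other 6. MFA2 had 324.5 and 107.9 CPM against 176.4 to 230 CPM. STE6, the exporter of a-factor, had 138 and 133 CPM in CRN/PPN2 +KOH and 268 and 284 CPM in CRN/PPN2 YPD, against 295 and 264 CPM in CRN +KOH and 331 and 293 CPM in CRN YPD, with the 2 CRN/PPN2 +KOH libraries below all others (interaction -0.87 ± 0.18, adjusted p = 0.00109, edgeR). FAR1, which arrests the cell cycle in response to pheromone, had 43 and 47.4 CPM in CRN/PPN2 +KOH and 111 and 120.5 CPM in CRN/PPN2 YPD, against 99.4 and 101 CPM in CRN +KOH and 138 and 129 CPM in CRN YPD, and fell in both strains, more in CRN/PPN2 (-0.95 ± 0.20). STE12, the transcription factor of the pathway, had 29.7 and 40.3 CPM in CRN/PPN2 +KOH and 63.7 and 75.7 CPM in CRN/PPN2 YPD, against 75.2 and 86.4 CPM in CRN +KOH and 72.5 and 87.2 CPM in CRN YPD (interaction -1.04 ± 0.22). It was not called after thinning. Against this direction, STE18, the γ subunit of the pheromone G protein, had 111 and 115 CPM in CRN/PPN2 +KOH and 56 and 52.2 CPM in CRN/PPN2 YPD, against 54.5 and 51.5 CPM in CRN +KOH and 56.4 and 49.7 CPM in CRN YPD, with an interaction of 1.05 ± 0.20.

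Of 34 Msn2/4 stress genes 17 were called higher and 4 lower, against 22.2% and 17.6% of all genes. Of these 34, 3 passed the filter only with the CRN/PPN2 +KOH libraries counted, and 1 of the 3 was called higher. The higher count was 11 without the first CRN YPD library and 7 after thinning, and the lower one 0 to 3 whichever library was left out and 0 without the replicate block. HSP12, a membrane-protecting stress protein, had 4989.6 and 4037 CPM in CRN/PPN2 +KOH and 874 and 663 CPM in CRN/PPN2 YPD, against 139 and 152 CPM in CRN +KOH and 89.3 and 73.5 CPM in CRN YPD. All 4 groups were apart, and both CRN/PPN2 groups lay above both CRN groups. KOH raised it by 2.56 in CRN/PPN2 and by 0.85 in CRN on the log2 scale (interaction 1.71 ± 0.21, adjusted p = 1.22e-05, edgeR). Of 20 genes of trehalose and glycogen metabolism 11 were higher and 1 lower, with 6 higher after thinning. GPH1, glycogen phosphorylase, had 1003 and 1637 CPM in CRN/PPN2 +KOH and 382 and 412 CPM in CRN/PPN2 YPD, against 222 and 207 CPM in CRN +KOH and 212 and 195 CPM in CRN YPD. CRN levels overlapped between the media, and the interaction was 1.64 ± 0.24. NTH1, neutral trehalase, had 320.1 and 371 CPM in CRN/PPN2 +KOH and 146 and 194 CPM in CRN/PPN2 YPD, against 124 and 143 CPM in CRN +KOH and 140.0 and 167 CPM in CRN YPD, with an interaction of 1.24 ± 0.17.

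The vacuole, where most polyphosphate lies, and its supply routes were represented by 2 lists. Of 14 genes of vacuolar hydrolases and their regulators 9 were called higher (5 without the replicate block) and 0 lower, against 22.2% and 17.6% of all genes. PBI2, an inhibitor of a vacuolar protease, had 389 and 340.3 CPM in CRN/PPN2 +KOH and 159 and 178 CPM in CRN/PPN2 YPD, against 130.2 and 128 CPM in CRN +KOH and 141 and 149 CPM in CRN YPD. KOH raised it only in CRN/PPN2 by the test (interaction 1.29 ± 0.18, adjusted p = 2.80e-05, edgeR). Of 31 autophagy genes 11 were higher and 1 lower, and 5 to 7 were higher without the replicate block, after thinning or without the first CRN/PPN2 YPD, either CRN +KOH or the first CRN YPD library. ATG8, the ubiquitin-like protein of the autophagosome membrane, had 161 and 147 CPM in CRN/PPN2 +KOH and 41.3 and 38.1 CPM in CRN/PPN2 YPD, against 30 and 34.6 CPM in CRN +KOH and 25 and 26.5 CPM in CRN YPD. Its CRN/PPN2 +KOH libraries lay far above the 6 others (interaction 1.63 ± 0.22).

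Of 42 nuclear genes of the respiratory chain and ATP synthase 16 were called higher and 4 lower, against 22.2% and 17.6% of all genes. Of these 42, 1 passed the filter only with the CRN/PPN2 +KOH libraries counted, and it was called higher. Among the 41 others 15 were higher. The higher count was 10 without the second CRN YPD library or after thinning. The lower one was 2 after thinning or without the first CRN/PPN2 YPD, first CRN +KOH or first CRN YPD library. CYC7, the hypoxic isoform of cytochrome c, had 671 and 589 CPM in CRN/PPN2 +KOH and 144 and 122 CPM in CRN/PPN2 YPD, against 67 and 65.3 CPM in CRN +KOH and 95.7 and 65.8 CPM in CRN YPD. The CRN/PPN2 +KOH pair was highest and the CRN groups overlapped (interaction 2.51 ± 0.19, adjusted p = 4.48e-08, edgeR). Of 16 genes of peroxisomal fatty acid oxidation 9 were higher and 0 lower, against 22.2% and 17.6% of all genes, with 4 higher after thinning and 4 at a minimum of 50 CPM. Of these 16, 3 passed the filter only with the CRN/PPN2 +KOH libraries counted, and 2 of the 3 were called higher. Among the 13 others 7 were higher.

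MET32, a zinc-finger activator of sulfur assimilation genes, had 120.2 and 122 CPM in CRN/PPN2 +KOH and 9.19 and 9.81 CPM in CRN/PPN2 YPD, against 14.1 and 11.8 CPM in CRN +KOH and 12.7 and 12.1 CPM in CRN YPD. The CRN groups overlapped, CRN/PPN2 YPD lay just below them, and the interaction was 3.61 ± 0.28 (adjusted p = 5.43e-08, edgeR). Of 23 genes of sulfate assimilation and methionine synthesis 12 were higher and 3 lower, against 22.2% and 17.6% of all genes. In 6 of the 15 this came through a response of CRN that was lost. The potassium transporter gene TRK1 had 385 and 430.4 CPM in CRN/PPN2 +KOH and 145 and 145 CPM in CRN/PPN2 YPD, against 159 and 163 CPM in CRN +KOH and 143 and 143 CPM in CRN YPD, high in CRN/PPN2 +KOH alone (interaction 1.31 ± 0.17). RIM21, the alkaline pH sensor of the Rim101 pathway, had 248 and 258 CPM in CRN/PPN2 +KOH and 104 and 84.4 CPM in CRN/PPN2 YPD, against 93.8 and 84.4 CPM in CRN +KOH and 87.5 and 98.7 CPM in CRN YPD, with an interaction of 1.49 ± 0.19 (adjusted p = 1.40e-05, edgeR).

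Genes that KOH raised in both strains and more in CRN/PPN2 included several of unknown function. YNR065C, a sortilin homolog, had 2285 and 2919 CPM in CRN/PPN2 +KOH and 88.7 and 86.1 CPM in CRN/PPN2 YPD, against 183 and 198 CPM in CRN +KOH and 107 and 105 CPM in CRN YPD. All 4 groups were apart in it, and KOH raised it by 4.89 in CRN/PPN2 and 0.85 in CRN (interaction 4.04 ± 0.20, adjusted p = 3.97e-10, edgeR). Its relatives YCR099C and EMA35 lie next to each other on chromosome III and overlap on one strand, so that their counts are not independent. YCR099C had 559.9 and 615 CPM in CRN/PPN2 +KOH and 18.6 and 14.3 CPM in CRN/PPN2 YPD, against 48.4 and 43.8 CPM in CRN +KOH and 21.4 and 18.3 CPM in CRN YPD. EMA35 had 584 and 791 CPM in CRN/PPN2 +KOH and 23.3 and 18.8 CPM in CRN/PPN2 YPD, against 70.2 and 58.1 CPM in CRN +KOH and 27.1 and 25.6 CPM in CRN YPD. Their interaction values were 3.94 ± 0.23 and 3.74 ± 0.26, and the YPD groups overlapped in YCR099C alone. The CYSTM protein gene CPP3 had 386 and 423 CPM in CRN/PPN2 +KOH and 4.09 and 3.14 CPM in CRN/PPN2 YPD, against 28.2 and 23 CPM in CRN +KOH and 2.27 and 1.99 CPM in CRN YPD. KOH raised CPP3 by 6.79 in CRN/PPN2 and by 3.56 in CRN, and the CRN/PPN2 effect was the largest among the genes named here (interaction 3.23 ± 0.49, adjusted p = 8.48e-05, edgeR). ZPS1, a zinc-regulated cell wall protein, had 174 and 267 CPM in CRN/PPN2 +KOH and 10.4 and 10.8 CPM in CRN/PPN2 YPD, against 14.6 and 13.6 CPM in CRN +KOH and 7.5 and 9.05 CPM in CRN YPD (interaction 3.59 ± 0.33).

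Amplified genes with few counts in YPD gave less firm values. ADH2, the glucose-repressed alcohol dehydrogenase, had 99.3 and 94.9 CPM in CRN/PPN2 +KOH and 2.86 and 1.37 CPM in CRN/PPN2 YPD, against 14.3 and 18.6 CPM in CRN +KOH and 0.909 and 1.99 CPM in CRN YPD. Its interaction of 2.04 ± 0.64 (adjusted p = 0.0174, edgeR) was not called after thinning or without the second CRN/PPN2 YPD, the first CRN +KOH or the second CRN YPD library (adjusted p = 0.906, 0.089, 0.0572 and 0.305 by edgeR). ECM8 and YOL160W passed the filter only with the CRN/PPN2 +KOH libraries counted. ECM8, of unknown function, had 106 and 113 CPM in CRN/PPN2 +KOH and 3.27 and 3.14 CPM in CRN/PPN2 YPD, against 5.85 and 4.6 CPM in CRN +KOH and 0.682 and 2.65 CPM in CRN YPD (interaction 3.47 ± 0.64, adjusted p = 0.000463, edgeR). It was not called after thinning or without the second CRN YPD library (adjusted p = 0.127 and 0.14, edgeR). YOL160W had 32.9 and 39.1 CPM in CRN/PPN2 +KOH and 1.23 and 0.392 CPM in CRN/PPN2 YPD, against 3.19 and 2.41 CPM in CRN +KOH and 0.455 and 0.662 CPM in CRN YPD (interaction 3.16 ± 1.00, adjusted p = 0.0183, edgeR). It was not called without the second CRN/PPN2 YPD or the second CRN YPD library (adjusted p = 0.059 and 0.147, edgeR).

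**Figure D2:**
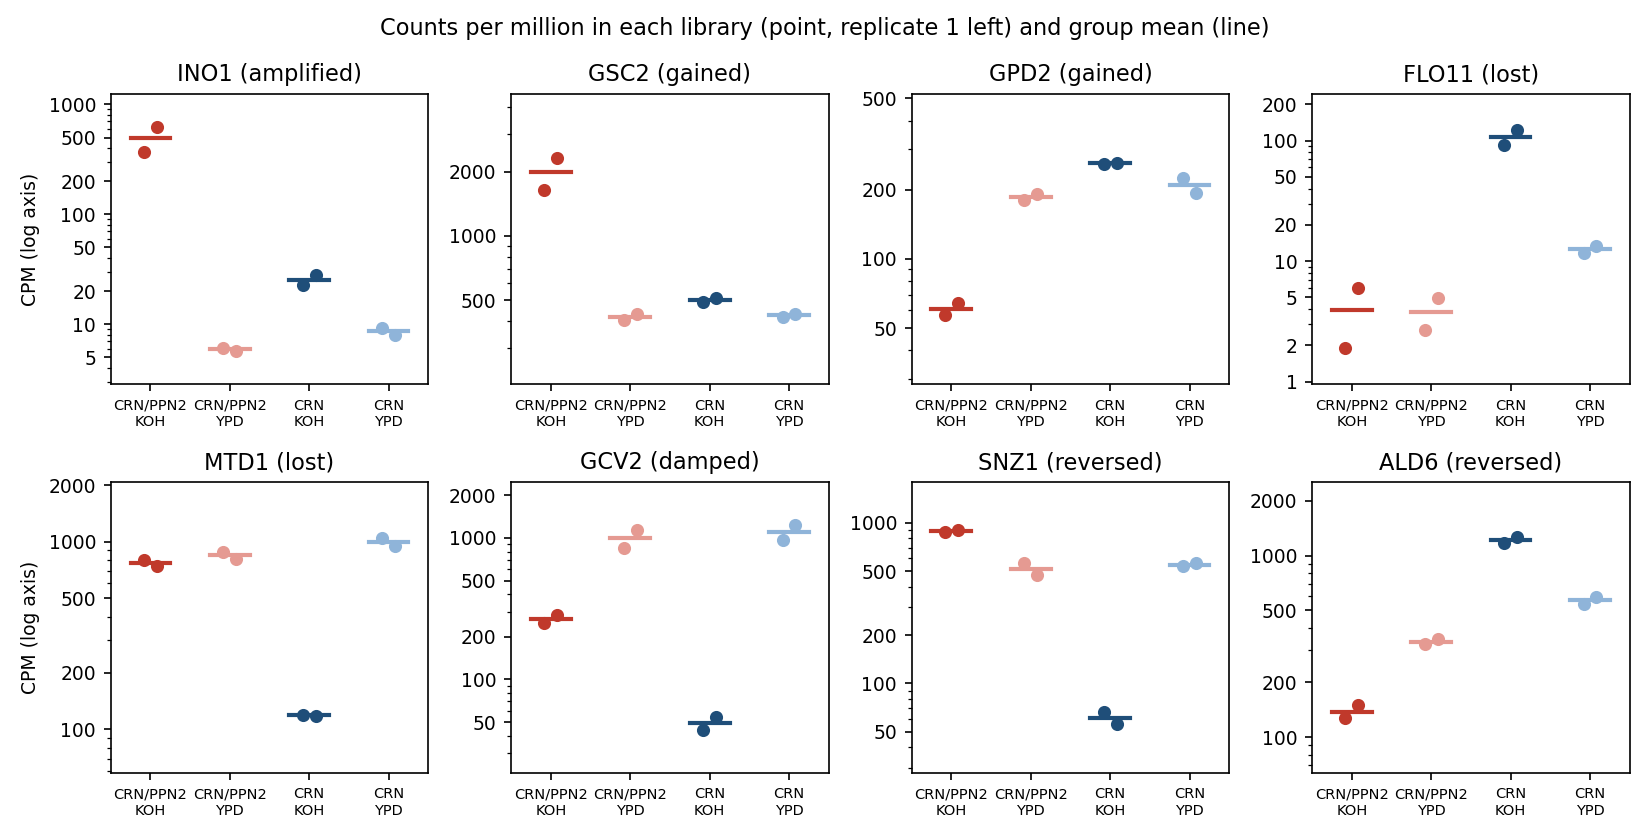
Levels in TMM-scaled CPM, on a log axis, of example genes of each class in every library, with a point per library, a line at the group mean and the groups in the order CRN/PPN2 +KOH, CRN/PPN2 YPD, CRN +KOH and CRN YPD. The INO1 panel has both CRN/PPN2 +KOH points at 368 and 628 CPM, above every other library, and the SNZ1 panel has the CRN +KOH points at 66.2 and 55.7 CPM, below every other.

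Fewer genes were amplified downward, 38 in all, and the 4 with the largest values belong to amino acid and NAD synthesis. ARG3, ornithine carbamoyltransferase, had 34.2 and 36.8 CPM in CRN/PPN2 +KOH and 401 and 472 CPM in CRN/PPN2 YPD, against 91.7 and 106 CPM in CRN +KOH and 546 and 593 CPM in CRN YPD. It was low in both +KOH groups and lowest in CRN/PPN2 (interaction -1.08 ± 0.21, adjusted p = 0.000728, edgeR). HIS1, which opens histidine synthesis, had 368 and 320.1 CPM in CRN/PPN2 +KOH and 1174 and 942 CPM in CRN/PPN2 YPD, against 885 and 908 CPM in CRN +KOH and 1299 and 1217 CPM in CRN YPD, with an interaction of -1.13 ± 0.19. Of 9 arginine synthesis genes tested 3 were higher and 1 lower, and of 6 histidine synthesis genes 2 and 2, against 22.2% and 17.6% of all genes. The higher counts were 1 and 1 without the replicate block. With upper quartile factors the arginine counts were 1 higher and 3 lower. BNA5 and BNA1 act in the kynurenine route from tryptophan to NAD. BNA5 had 44.9 and 35.6 CPM in CRN/PPN2 +KOH and 132 and 126 CPM in CRN/PPN2 YPD, against 65.1 and 66.9 CPM in CRN +KOH and 92.1 and 92.5 CPM in CRN YPD. BNA1 had 108 and 65.2 CPM in CRN/PPN2 +KOH and 377 and 305 CPM in CRN/PPN2 YPD, against 193 and 203 CPM in CRN +KOH and 373 and 339.5 CPM in CRN YPD. Both fell in both strains, with interaction values of -1.17 ± 0.21 and -1.09 ± 0.22. BNA4, kynurenine monooxygenase of the same route, went the other way and had 326 and 336 CPM in CRN/PPN2 +KOH and 298 and 240.0 CPM in CRN/PPN2 YPD, against 78.4 and 73.4 CPM in CRN +KOH and 314 and 293 CPM in CRN YPD. Its fall in CRN was lost in CRN/PPN2 (interaction 2.29 ± 0.18, adjusted p = 5.36e-08, edgeR).

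KOH lowered 21 of 23 genes of glycolysis and fermentation in CRN/PPN2 and 4 in CRN by the test. In the interaction 14 were called lower and 0 higher, and 6 to 8 were lower without the replicate block or when any one library other than the CRN/PPN2 +KOH pair was left out. Over all genes 17.6% were called lower and 22.2% higher. The median KOH effect of the list was -0.82 in CRN/PPN2 and -0.09 in CRN. GPM1, phosphoglycerate mutase, had 4064 and 4244 CPM in CRN/PPN2 +KOH and 8597 and 8274 CPM in CRN/PPN2 YPD, against 8526 and 9282 CPM in CRN +KOH and 8412 and 8261 CPM in CRN YPD. The 6 other libraries lay in one range, and the interaction was -1.12 ± 0.20 (adjusted p = 0.000299, edgeR). PGK1, phosphoglycerate kinase, had 3828 and 4463 CPM in CRN/PPN2 +KOH and 7944 and 9393 CPM in CRN/PPN2 YPD, against 9087 and 9401 CPM in CRN +KOH and 9175 and 10453 CPM in CRN YPD, with the same shape (-0.98 ± 0.20). ADH1, the fermentative alcohol dehydrogenase, had 4652 and 4936 CPM in CRN/PPN2 +KOH and 8128 and 9699.9 CPM in CRN/PPN2 YPD, against 10228 and 12432 CPM in CRN +KOH and 9112 and 11302 CPM in CRN YPD (-1.04 ± 0.20). HXK2, the main glucose-phosphorylating hexokinase, had 437 and 530.0 CPM in CRN/PPN2 +KOH and 820.5 and 878 CPM in CRN/PPN2 YPD, against 1438 and 1367 CPM in CRN +KOH and 1196 and 1220.2 CPM in CRN YPD. It was lower in both CRN/PPN2 groups than in both CRN groups and lowest with KOH (interaction -1.04 ± 0.19).

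Genes of protein synthesis were also called lower. All 11 called members of the 19 tRNA synthetase genes tested were lower, with 6 or 7 lower without the first CRN/PPN2 YPD library or any one CRN library. Of 37 translation factor genes 19 were lower and 3 higher, against 17.6% and 22.2% of all genes. The lower count was 8 to 12 without the replicate block or any one CRN/PPN2 YPD or CRN +KOH library. The higher one was 5 without the second CRN/PPN2 +KOH library and 1 without the first CRN/PPN2 YPD or the first CRN YPD library. THS1, threonyl-tRNA synthetase, had 624 and 694 CPM in CRN/PPN2 +KOH and 1244 and 1081 CPM in CRN/PPN2 YPD, against 1422 and 1419.6 CPM in CRN +KOH and 1382 and 1256 CPM in CRN YPD (interaction -0.93 ± 0.19, adjusted p = 0.00118, edgeR). Of 68 mitochondrial ribosomal protein genes 27 were lower and 2 higher (10 higher without the second CRN/PPN2 +KOH library and 0 without the replicate block). Of 139 cytosolic ones 35 were lower and 14 higher, against 17.6% and 22.2% of all genes. The lower count was 73 without the first CRN/PPN2 +KOH library. The higher one was 39 without the second CRN/PPN2 +KOH library, 9 and 7 without the first and second CRN/PPN2 YPD library, 5 and 9 without the first and second CRN +KOH library, 6 without the second CRN YPD library and 9 without the replicate block. Paralogs of this family are nearly identical, and their single counts are uncertain. ASC1, a scaffold protein of the small subunit without such a copy, had 1318 and 1601 CPM in CRN/PPN2 +KOH and 4031 and 3251 CPM in CRN/PPN2 YPD, against 5053 and 4898 CPM in CRN +KOH and 3999 and 3798 CPM in CRN YPD. CRN/PPN2 +KOH was lowest and the interaction was -1.67 ± 0.22, in a gene that also holds a snoRNA gene. MRPL9, of the mitochondrial large subunit, had 86 and 72.3 CPM in CRN/PPN2 +KOH and 159.6 and 160.1 CPM in CRN/PPN2 YPD, against 179 and 169.9 CPM in CRN +KOH and 161 and 153 CPM in CRN YPD (-1.15 ± 0.18). The histone gene HTB2 had 157 and 102 CPM in CRN/PPN2 +KOH and 398 and 373 CPM in CRN/PPN2 YPD, against 287 and 329.5 CPM in CRN +KOH and 315 and 417 CPM in CRN YPD (-1.28 ± 0.24), and 5 of 10 histone genes were lower, 9 without the first CRN/PPN2 +KOH library and 3 without the replicate block.

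The gained falls of largest size were scattered over other functions. GPD2, glycerol-3-phosphate dehydrogenase, had 56.9 and 64 CPM in CRN/PPN2 +KOH and 181 and 192 CPM in CRN/PPN2 YPD, against 259 and 262 CPM in CRN +KOH and 225 and 194 CPM in CRN YPD (interaction -1.96 ± 0.20, adjusted p = 9.82e-07, edgeR). SCS3, which acts in lipid storage, had 41.8 and 40.3 CPM in CRN/PPN2 +KOH and 172 and 92 CPM in CRN/PPN2 YPD, against 114 and 137 CPM in CRN +KOH and 112 and 97.6 CPM in CRN YPD (-1.96 ± 0.31), with a wide gap between its CRN/PPN2 YPD libraries. HO, the mating type endonuclease, had 21.5 and 20.2 CPM in CRN/PPN2 +KOH and 85 and 70.6 CPM in CRN/PPN2 YPD, against 149 and 151 CPM in CRN +KOH and 154 and 146 CPM in CRN YPD (-1.90 ± 0.23). DFR1, dihydrofolate reductase, had 14.6 and 10.7 CPM in CRN/PPN2 +KOH and 42.9 and 37.1 CPM in CRN/PPN2 YPD, against 46.8 and 47.6 CPM in CRN +KOH and 35.9 and 42.2 CPM in CRN YPD (-1.87 ± 0.30). In all 4 the CRN/PPN2 +KOH libraries were below the 6 others.

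The responses to KOH seen in CRN and not called in CRN/PPN2 included 79 rises. FLO11, the flocculin of filamentous and invasive growth, had 1.9 and 5.93 CPM in CRN/PPN2 +KOH and 2.66 and 4.91 CPM in CRN/PPN2 YPD, against 91.7 and 123 CPM in CRN +KOH and 11.6 and 13.5 CPM in CRN YPD. Only CRN +KOH was high, and the CRN/PPN2 groups overlapped. The KOH effect was -0.12 in CRN/PPN2 and 3.09 in CRN (interaction -3.22 ± 0.52, adjusted p = 0.000132, edgeR). PRM7, a pheromone-regulated gene, had 6.33 and 19 CPM in CRN/PPN2 +KOH and 5.72 and 9.03 CPM in CRN/PPN2 YPD, against 50.2 and 52 CPM in CRN +KOH and 4.55 and 5.96 CPM in CRN YPD (interaction -2.68 ± 0.45, adjusted p = 0.000201, edgeR). Its neighbour BSC1 on chromosome IV had 3.8 and 8.3 CPM in CRN/PPN2 +KOH and 1.63 and 3.14 CPM in CRN/PPN2 YPD, against 21.5 and 24.6 CPM in CRN +KOH and 0.682 and 0 CPM in CRN YPD. BSC1 held 193 counts over the 2 CRN +KOH libraries, against 3 over the CRN YPD libraries, a ratio per library total of 68.6 (95% exact interval 23.1 to 336, counting error only). Its fitted interaction of -4.76 ± 0.85 (adjusted p = 0.000355, edgeR) depends on how a count of 0 is treated, and was -8.35 without the first CRN YPD library. HXT2, a high-affinity glucose transporter, had 146 and 162 CPM in CRN/PPN2 +KOH and 159 and 209 CPM in CRN/PPN2 YPD, against 715 and 756 CPM in CRN +KOH and 199 and 240.0 CPM in CRN YPD. CRN +KOH lay above the other 6 libraries by more than their spread (interaction -2.00 ± 0.19, adjusted p = 4.10e-07, edgeR). HXT2 went against most called hexose transporter genes. Of 10 tested 5 were called higher and 1 lower, against 22.2% and 17.6% of all genes. Of these 10, 2 passed the filter only with the CRN/PPN2 +KOH libraries counted, and 1 of the 2 was higher. The higher count was 3 without the replicate block and 2 after thinning.

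Of the 79 lost rises 21 belonged to ribosome biogenesis factors and 5 to chaperones, and of the 38 reversed rises 10 and 4. Of 133 ribosome biogenesis genes KOH raised 73 in CRN, and 57 were called lower in the interaction and 9 higher (4 to 14 as single libraries were left out and 4 without the replicate block). Over all genes 17.6% were called lower and 22.2% higher. Of the called ribosome biogenesis genes 21 responses were lost, 10 reversed, 7 amplified and 25 gained. The median KOH effect of the list was 0.00 in CRN/PPN2 and 0.39 in CRN. The lower count was 36 without the replicate block, 37 and 36 without the first and second CRN +KOH library, and 37 without the second CRN YPD library. NOG2, a GTPase of large subunit assembly, had 173 and 164 CPM in CRN/PPN2 +KOH and 461 and 319 CPM in CRN/PPN2 YPD, against 513 and 473 CPM in CRN +KOH and 372 and 301 CPM in CRN YPD. CRN/PPN2 +KOH was lowest and CRN +KOH highest, and the effects were -1.21 in CRN/PPN2 and 0.56 in CRN (interaction -1.77 ± 0.19, adjusted p = 2.85e-06, edgeR). Like ASC1, NOG2 holds a snoRNA gene. DBP2, an RNA helicase, had 191 and 147 CPM in CRN/PPN2 +KOH and 344 and 341 CPM in CRN/PPN2 YPD, against 408 and 429 CPM in CRN +KOH and 243 and 257 CPM in CRN YPD, with the same order of the +KOH groups (-1.74 ± 0.19). NMD3, the export adaptor of the large subunit, had 180.3 and 130.4 CPM in CRN/PPN2 +KOH and 257 and 226 CPM in CRN/PPN2 YPD, against 359 and 324 CPM in CRN +KOH and 253 and 209 CPM in CRN YPD (-1.20 ± 0.18). The snoRNA snR30, which guides the first cuts of the ribosomal RNA precursor, had 29.1 and 8.3 CPM in CRN/PPN2 +KOH and 67.2 and 44.5 CPM in CRN/PPN2 YPD, against 61.1 and 73 CPM in CRN +KOH and 48 and 39.5 CPM in CRN YPD (-2.05 ± 0.36), although such RNAs carry no lasting poly(A) tail. Its value was -3.25 without the first CRN/PPN2 +KOH library.

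The promoters of NOG2 (chrXIV:723213-723362, minus strand) and DBP2 (chrXIV:413389-413538, plus strand) are shown over the same stretch, since most promoters of this list share 2 elements. Capitals mark the PAC motif GATGAG, which reads CTCATC on the other strand, and the RRPE motif AAAATTTT.
NOG2: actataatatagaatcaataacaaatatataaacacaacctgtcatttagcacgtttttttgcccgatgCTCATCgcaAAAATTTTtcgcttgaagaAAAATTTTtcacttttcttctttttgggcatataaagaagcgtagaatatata
DBP2: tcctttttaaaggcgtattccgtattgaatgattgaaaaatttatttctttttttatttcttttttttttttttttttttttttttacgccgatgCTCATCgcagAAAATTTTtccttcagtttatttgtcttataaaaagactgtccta
GATGAG stood in 91.0% of the promoters of the list and AAAATTTT in 78.2%, against 20.2% and 9.67% of all promoters. Of the 78 promoters of genes with a lost rise, 53.8% held GATGAG and 41.0% AAAATTTT. Of the 37 promoters of genes whose rise was reversed, 51.4% and 43.2% held them. Among the 735 promoters of genes with a gained fall the shares were 21.8% and 15.8%.

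Of 24 cytosolic chaperone genes 14 were lower in the interaction and 4 higher, against 17.6% and 22.2% of all genes. KOH raised 12 of the 24 in CRN. The higher count was 7 without the first CRN/PPN2 +KOH library and 1 or 2 without the replicate block or any one CRN/PPN2 YPD or CRN library. FES1, a nucleotide exchange factor of Hsp70, had 85.4 and 77.1 CPM in CRN/PPN2 +KOH and 97.9 and 95.9 CPM in CRN/PPN2 YPD, against 153 and 174 CPM in CRN +KOH and 80.7 and 81.5 CPM in CRN YPD. CRN +KOH stood above the other groups, and the CRN/PPN2 response was not called (interaction -1.25 ± 0.19, adjusted p = 7.73e-05, edgeR). CPR6, a cyclophilin of the Hsp90 machinery, had 206 and 223 CPM in CRN/PPN2 +KOH and 223 and 256 CPM in CRN/PPN2 YPD, against 413 and 395 CPM in CRN +KOH and 227 and 232 CPM in CRN YPD (-0.98 ± 0.17). YDJ1, an Hsp40, had 319 and 325 CPM in CRN/PPN2 +KOH and 394 and 422 CPM in CRN/PPN2 YPD, against 613 and 644 CPM in CRN +KOH and 408 and 420.3 CPM in CRN YPD, and was called lower with KOH in CRN/PPN2 and higher in CRN (-0.94 ± 0.17). The Hsp70 genes SSA1 and SSA2 are nearly identical and share reads. SSA2 had 391 and 304 CPM in CRN/PPN2 +KOH and 517 and 773 CPM in CRN/PPN2 YPD, against 1406 and 1764 CPM in CRN +KOH and 755 and 937 CPM in CRN YPD, and the values of both genes were reversed (-1.75 ± 0.24 for SSA2 and -0.95 ± 0.18 for SSA1).

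Falls with KOH in CRN were smaller or not called in CRN/PPN2 for most genes of purine and one-carbon synthesis. Of 17 tested, 13 were called higher in the interaction and 1 lower, with 10 to 13 higher whichever library was left out. Over all genes 22.2% were called higher and 17.6% lower. The median KOH effect of the 17 was -0.78 in CRN/PPN2 and -1.88 in CRN, and 14 of the 17 fell in each strain by the test. GCV1 and GCV2 encode subunits of glycine decarboxylase. GCV2 had 252 and 286 CPM in CRN/PPN2 +KOH and 854 and 1134 CPM in CRN/PPN2 YPD, against 43.8 and 53.9 CPM in CRN +KOH and 965 and 1242 CPM in CRN YPD. Both +KOH groups lay below both YPD groups, and CRN +KOH was the lowest by a wide margin. The KOH effect on GCV2 was -1.87 in CRN/PPN2 and -4.49 in CRN on the log2 scale (interaction 2.62 ± 0.19, adjusted p = 3.22e-08, edgeR). GCV1 had 354 and 429 CPM in CRN/PPN2 +KOH and 1394 and 1179 CPM in CRN/PPN2 YPD, against 52.6 and 53.7 CPM in CRN +KOH and 1124 and 1063 CPM in CRN YPD (2.64 ± 0.21). SHM2, cytosolic serine hydroxymethyltransferase, had 982 and 958 CPM in CRN/PPN2 +KOH and 1825 and 2198 CPM in CRN/PPN2 YPD, against 199 and 241 CPM in CRN +KOH and 2467 and 3063 CPM in CRN YPD (2.61 ± 0.20). ADE17, which catalyses the last steps of IMP synthesis, had 1427 and 1518 CPM in CRN/PPN2 +KOH and 2949 and 2808 CPM in CRN/PPN2 YPD, against 394 and 377 CPM in CRN +KOH and 3476 and 3362 CPM in CRN YPD (2.18 ± 0.19). In all of these the order of the 4 groups was CRN +KOH lowest, then CRN/PPN2 +KOH, then the YPD groups. MTD1, a methylenetetrahydrofolate dehydrogenase, had 800.3 and 742 CPM in CRN/PPN2 +KOH and 883 and 812 CPM in CRN/PPN2 YPD, against 120.1 and 118 CPM in CRN +KOH and 1043 and 949.7 CPM in CRN YPD. Its fall in CRN was lost in CRN/PPN2 (interaction 2.93 ± 0.18, adjusted p = 6.13e-09, edgeR).

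**Figure D3:**
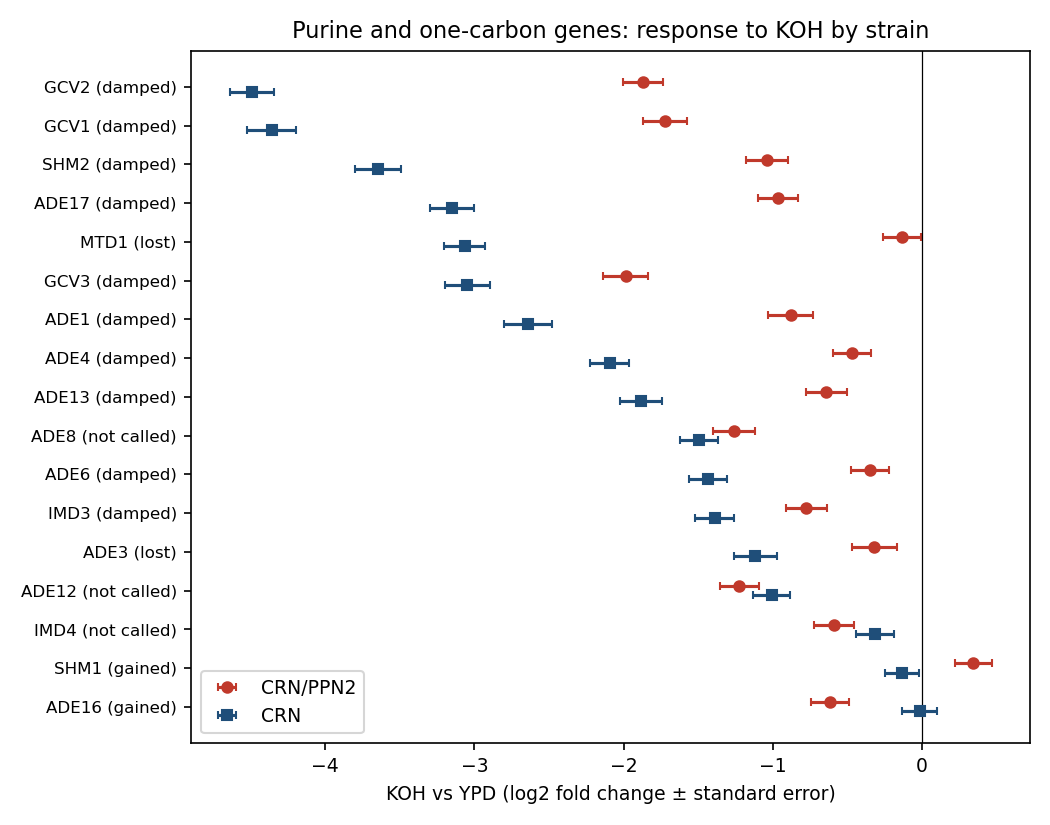
KOH vs. YPD log2 fold change with its SE for each of the 17 purine and one-carbon genes tested, with CRN/PPN2 and CRN side by side. The CRN/PPN2 value lies nearer 0 than the CRN value in 12 of the 13 genes called higher, the exception being SHM1 (named after its values were seen), and GCV2 stands at -1.87 in CRN/PPN2 and -4.49 in CRN.

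The promoters of GCV2 (chrXIII:637250-637399, plus strand), SHM2 (chrXII:259502-259651, minus strand) and MTD1 (chrXI:590145-590294, plus strand) are shown because TGACTC, the core of the elements of Gcn4 and Bas1, was frequent among the damped genes. Capitals mark it, and it reads GAGTCA on the other strand.
GCV2: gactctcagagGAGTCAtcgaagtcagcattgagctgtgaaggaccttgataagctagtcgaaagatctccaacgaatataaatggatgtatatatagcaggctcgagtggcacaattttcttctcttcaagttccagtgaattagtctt
SHM2: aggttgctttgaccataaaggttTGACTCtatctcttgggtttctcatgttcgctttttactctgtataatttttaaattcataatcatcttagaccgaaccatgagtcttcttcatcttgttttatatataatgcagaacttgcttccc
MTD1: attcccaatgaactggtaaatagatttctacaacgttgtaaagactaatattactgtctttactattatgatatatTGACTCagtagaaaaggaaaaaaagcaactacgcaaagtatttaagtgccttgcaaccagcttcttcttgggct
TGACTC stood in 54.8% of the 31 promoters of damped falls, in 30.6% of the 62 of lost falls and in 64.7% of the promoters of the purine and one-carbon list, against 8.37% of all promoters. These sets are not separate, since 10 genes of the list were damped falls and 2 were lost falls. The same letters also stood in 21.1% of the 38 promoters of amplified falls, such as those of amino acid synthesis, and in 8.12% of those of gained rises.

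Lost falls also included vitamin and amino acid genes. SNO1, of vitamin B6 synthesis, had 78.4 and 91.3 CPM in CRN/PPN2 +KOH and 90.5 and 74.6 CPM in CRN/PPN2 YPD, against 8.5 and 9.65 CPM in CRN +KOH and 81.4 and 91 CPM in CRN YPD. CRN +KOH alone was low, and the other groups overlapped (interaction 3.26 ± 0.25, adjusted p = 5.24e-08, edgeR). SRY1, a serine-related dehydratase, had 218 and 279.8 CPM in CRN/PPN2 +KOH and 214 and 179 CPM in CRN/PPN2 YPD, against 73.6 and 69.7 CPM in CRN +KOH and 247 and 229 CPM in CRN YPD (2.06 ± 0.20). MET6, methionine synthase, had 672 and 907 CPM in CRN/PPN2 +KOH and 768 and 921 CPM in CRN/PPN2 YPD, against 528 and 578 CPM in CRN +KOH and 1415 and 1481 CPM in CRN YPD, low in CRN +KOH and also lower in CRN/PPN2 YPD than in CRN YPD (1.29 ± 0.19). Damped rises were few. CHA1, the serine and threonine deaminase, had 168 and 221 CPM in CRN/PPN2 +KOH and 48.6 and 52.8 CPM in CRN/PPN2 YPD, against 439 and 487 CPM in CRN +KOH and 62.5 and 71.3 CPM in CRN YPD. It rose in both strains, less in CRN/PPN2 (interaction -0.87 ± 0.18, adjusted p = 0.00126, edgeR), and was not called after thinning. The other, YOR385W, of unknown function, had 101 and 91.3 CPM in CRN/PPN2 +KOH and 73.6 and 68.1 CPM in CRN/PPN2 YPD, against 67 and 63.8 CPM in CRN +KOH and 34.1 and 29.8 CPM in CRN YPD (-0.60 ± 0.20), and was not called without the replicate block (adjusted p = 0.0702, edgeR) or without any one library other than the CRN/PPN2 +KOH pair (adjusted p = 0.0606 to 0.127, edgeR).

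Reversal of a fall was led by SNZ1, the partner of SNO1 in vitamin B6 synthesis and its neighbour on chromosome XIII. SNZ1 had 874 and 894 CPM in CRN/PPN2 +KOH and 558 and 471 CPM in CRN/PPN2 YPD, against 66.2 and 55.7 CPM in CRN +KOH and 534 and 561 CPM in CRN YPD. CRN/PPN2 +KOH lay above and CRN +KOH far below all other libraries. The KOH effect was 0.78 in CRN/PPN2 and -3.17 in CRN (interaction 3.96 ± 0.20, adjusted p = 3.97e-10, edgeR). SDH9, a homolog of the flavoprotein of succinate dehydrogenase, had 87.3 and 123 CPM in CRN/PPN2 +KOH and 17.6 and 13.7 CPM in CRN/PPN2 YPD, against 3.99 and 6.58 CPM in CRN +KOH and 12.7 and 12.8 CPM in CRN YPD (3.96 ± 0.36). MUP3, a methionine permease, had 38.6 and 55.7 CPM in CRN/PPN2 +KOH and 11.6 and 12.9 CPM in CRN/PPN2 YPD, against 3.99 and 5.26 CPM in CRN +KOH and 16.4 and 20.3 CPM in CRN YPD (3.89 ± 0.33). RTC2, a vacuolar membrane transporter, had 139 and 149 CPM in CRN/PPN2 +KOH and 63.9 and 42.8 CPM in CRN/PPN2 YPD, against 17.3 and 17.8 CPM in CRN +KOH and 67.7 and 55.6 CPM in CRN YPD (3.22 ± 0.24). In each the +KOH groups were the extremes, CRN/PPN2 the highest and CRN the lowest. The glycogenin gene GLG1 had 87.9 and 91.3 CPM in CRN/PPN2 +KOH and 61.1 and 74 CPM in CRN/PPN2 YPD, against 22.3 and 20.8 CPM in CRN +KOH and 71.4 and 77.9 CPM in CRN YPD, where the reversal lay mainly in the fall of CRN (2.21 ± 0.22).

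Of 24 peroxiredoxin, thioredoxin, glutaredoxin and dismutase genes 8 were higher and 2 lower, against 22.2% and 17.6% of all genes, and 4 of the called ones were reversed and 6 gained. The lower count was 4 with upper quartile factors and 1 without the replicate block, the second CRN/PPN2 YPD, the first CRN +KOH or either CRN YPD library. PRX1, the mitochondrial peroxiredoxin, had 232 and 279 CPM in CRN/PPN2 +KOH and 150.4 and 154 CPM in CRN/PPN2 YPD, against 77.9 and 77 CPM in CRN +KOH and 109 and 103 CPM in CRN YPD. CRN/PPN2 +KOH was highest and CRN +KOH lowest (interaction 1.18 ± 0.18, adjusted p = 7.28e-05, edgeR). TRX2, a thioredoxin, had 643 and 608 CPM in CRN/PPN2 +KOH and 389 and 372 CPM in CRN/PPN2 YPD, against 281 and 292 CPM in CRN +KOH and 412 and 407 CPM in CRN YPD (1.23 ± 0.17), and GRX2, a glutaredoxin that overlaps another gene on the opposite strand, had 294 and 244 CPM in CRN/PPN2 +KOH and 153 and 156 CPM in CRN/PPN2 YPD, against 110.3 and 94.3 CPM in CRN +KOH and 121 and 157 CPM in CRN YPD (1.26 ± 0.20). GRX1 had 1137 and 915 CPM in CRN/PPN2 +KOH and 391 and 323 CPM in CRN/PPN2 YPD, against 267 and 256 CPM in CRN +KOH and 325 and 306 CPM in CRN YPD. Its CRN effect was not called, so its response counted as gained (1.79 ± 0.18).

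The promoters of GRX2 (chrIV:1470767-1470916, plus strand) and PRX1 (chrII:101257-101406, minus strand) carry AGGGG, the stress response element of Msn2 and Msn4, in capitals (CCCCT on the other strand).
GRX2: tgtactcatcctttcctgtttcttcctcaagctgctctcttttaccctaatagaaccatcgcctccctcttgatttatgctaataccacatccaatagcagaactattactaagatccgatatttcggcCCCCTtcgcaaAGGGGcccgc
PRX1: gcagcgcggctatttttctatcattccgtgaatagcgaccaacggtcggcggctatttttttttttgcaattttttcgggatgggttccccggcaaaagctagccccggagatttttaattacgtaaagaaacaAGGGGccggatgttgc
AGGGG stood in 41.3% of the 63 promoters of reversed falls, 27.4% of the 862 of gained rises and 70.6% of those of the Msn2/4 list, against 21.7% of all promoters. It stood in 15.1% of those of gained falls and 8.11% of those of reversed rises.

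Reversal of a rise was led by ALD6, the cytosolic acetaldehyde dehydrogenase. ALD6 had 127 and 149 CPM in CRN/PPN2 +KOH and 326 and 345 CPM in CRN/PPN2 YPD, against 1173 and 1271 CPM in CRN +KOH and 540.3 and 593 CPM in CRN YPD. CRN/PPN2 +KOH was lowest and CRN +KOH highest, with both YPD groups between them. KOH lowered ALD6 in CRN/PPN2 (log2 -1.29) and raised it in CRN (1.11; interaction -2.40 ± 0.19, adjusted p = 5.11e-08, edgeR). FRE1, the copper and iron reductase of the cell surface, had 108 and 115 CPM in CRN/PPN2 +KOH and 160.4 and 131 CPM in CRN/PPN2 YPD, against 455 and 418 CPM in CRN +KOH and 217 and 199 CPM in CRN YPD, and was reversed in the same sense (-1.47 ± 0.19). FRE1 went against most called genes of the iron regulon. Of 24 tested 9 were higher and 3 lower, against 22.2% and 17.6% of all genes, with 5 higher at a minimum of 50 CPM.

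Phosphate genes were called in both directions, 5 of 20 PHO regulon genes higher and 6 lower, against 22.2% and 17.6% of all genes. Of the 5 higher ones, PHM7 passed the filter only with the CRN/PPN2 +KOH libraries counted. The higher count was 2 or 3 without the replicate block, the first CRN/PPN2 +KOH, the first CRN/PPN2 YPD, either CRN +KOH or the second CRN YPD library, and the lower one 3 without the second CRN YPD library. The acid phosphatase gene PHO12, which is nearly identical to PHO11, had 42.4 and 27.3 CPM in CRN/PPN2 +KOH and 72.1 and 71.8 CPM in CRN/PPN2 YPD, against 273 and 279 CPM in CRN +KOH and 214 and 200.0 CPM in CRN YPD. Both CRN/PPN2 groups lay below both CRN groups, and the response was reversed (interaction -1.40 ± 0.22, adjusted p = 0.000114, edgeR). The high-affinity phosphate transporter gene PHO84, which overlaps an antisense gene, had 1241 and 1595 CPM in CRN/PPN2 +KOH and 1328 and 1778 CPM in CRN/PPN2 YPD, against 1843 and 1779 CPM in CRN +KOH and 2692 and 2806 CPM in CRN YPD. Its interaction of 0.47 ± 0.21 was not called (adjusted p = 0.0828, edgeR) and was called without the first CRN/PPN2 +KOH library (adjusted p = 0.00746, edgeR). The sodium-coupled transporter gene PHO89 had 108 and 119 CPM in CRN/PPN2 +KOH and 89.7 and 123 CPM in CRN/PPN2 YPD, against 648 and 614 CPM in CRN +KOH and 498 and 537 CPM in CRN YPD. The strains were far apart, the CRN/PPN2 groups overlapped, and CRN +KOH lay above CRN YPD (interaction -0.19 ± 0.21, adjusted p = 0.479, edgeR). The low-affinity transporter genes PHO87 and PHO90 had interaction values of -0.18 ± 0.19 (adjusted p = 0.471, edgeR) and -0.56 ± 0.21 (adjusted p = 0.04, edgeR). The value of PHO90 was not called without the replicate block (adjusted p = 0.0916, edgeR) or without any one library other than the first CRN/PPN2 +KOH and the first CRN +KOH library (adjusted p = 0.091 to 0.187, edgeR).

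The VTC complex, which makes polyphosphate, had 3 of 5 genes lower and 1 higher, against 17.6% and 22.2% of all genes. VTC3 had 441 and 401 CPM in CRN/PPN2 +KOH and 783 and 687 CPM in CRN/PPN2 YPD, against 1382 and 1142 CPM in CRN +KOH and 1182 and 1057 CPM in CRN YPD. It was lowest in CRN/PPN2 +KOH (interaction -0.97 ± 0.18, adjusted p = 0.000532, edgeR), and VTC2 had an interaction of -0.73 ± 0.18 (adjusted p = 0.00405, edgeR). VTC4, the synthase subunit, had 292 and 340.3 CPM in CRN/PPN2 +KOH and 533 and 662 CPM in CRN/PPN2 YPD, against 791 and 761 CPM in CRN +KOH and 886 and 979 CPM in CRN YPD (-0.66 ± 0.19, adjusted p = 0.0109, edgeR). VTC5 had 91.1 and 108 CPM in CRN/PPN2 +KOH and 160.4 and 194 CPM in CRN/PPN2 YPD, against 94.3 and 90.5 CPM in CRN +KOH and 251 and 239 CPM in CRN YPD, and was damped, with the largest fall in CRN (0.56 ± 0.20, adjusted p = 0.0294, edgeR). VTC4 and VTC5 were not called without the replicate block (adjusted p = 0.0524 and 0.0809, edgeR), VTC5 was not called with upper quartile factors (adjusted p = 0.0696, edgeR), and both lost the call when some single libraries were left out (adjusted p up to 0.108 for VTC4 and 0.168 for VTC5, edgeR). The exopolyphosphatase gene PPX1 had an interaction of -0.51 ± 0.17 (adjusted p = 0.0272, edgeR; 0.104 without the block and 0.051 to 0.135 without any one library other than the CRN/PPN2 +KOH pair and the first CRN +KOH library). PHM7, a gene named for its regulation by phosphate, had 41.1 and 46.2 CPM in CRN/PPN2 +KOH and 5.52 and 9.22 CPM in CRN/PPN2 YPD, against 4.52 and 5.7 CPM in CRN +KOH and 2.73 and 4.86 CPM in CRN YPD (2.18 ± 0.43, adjusted p = 0.000763, edgeR), and PHM6 an uncalled 0.36 ± 0.29 (adjusted p = 0.346, edgeR). PHM7 passed the filter only with the CRN/PPN2 +KOH libraries counted and was not called after thinning.

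Of the proton pump and pH signalling genes that the study discusses, only RIM21 was called. The plasma membrane pump gene PMA1 had 1760.0 and 2134 CPM in CRN/PPN2 +KOH and 3038 and 3659 CPM in CRN/PPN2 YPD, against 3001 and 3150.1 CPM in CRN +KOH and 3877 and 4183 CPM in CRN YPD. KOH lowered it in CRN/PPN2 by the test, and the interaction of -0.39 ± 0.19 was not called (adjusted p = 0.114, edgeR). It was called without the second CRN/PPN2 +KOH library (adjusted p = 0.0146, edgeR). Its paralog PMA2 passed the filter only with the CRN/PPN2 +KOH libraries counted and had an interaction of 1.06 ± 0.49 (adjusted p = 0.0911, edgeR). This value was 1.44 without the second CRN/PPN2 +KOH library and 1.63 without the second CRN/PPN2 YPD library. VPH1, a subunit of the vacuolar proton pump, had -0.15 ± 0.20 (adjusted p = 0.567, edgeR), and 2 of 17 genes of that pump were higher and 2 lower, 4 and 4 without the first CRN/PPN2 +KOH library and 1 lower without the replicate block. The counts for the vacuolar pump stand beside 22.2% higher and 17.6% lower over all genes. The transcription factor gene RIM101 had -0.21 ± 0.22 (adjusted p = 0.472, edgeR), and the CYSTM gene MNC1 0.23 ± 0.33 (adjusted p = 0.609, edgeR). URA3, the marker of the plasmid, had 1212 and 1155 CPM in CRN/PPN2 +KOH and 1894 and 1729.8 CPM in CRN/PPN2 YPD, against 281 and 301 CPM in CRN +KOH and 235 and 273 CPM in CRN YPD, with a fall on KOH in CRN/PPN2 only by the test (-0.81 ± 0.19, adjusted p = 0.00294, edgeR).

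**Figure D4:**
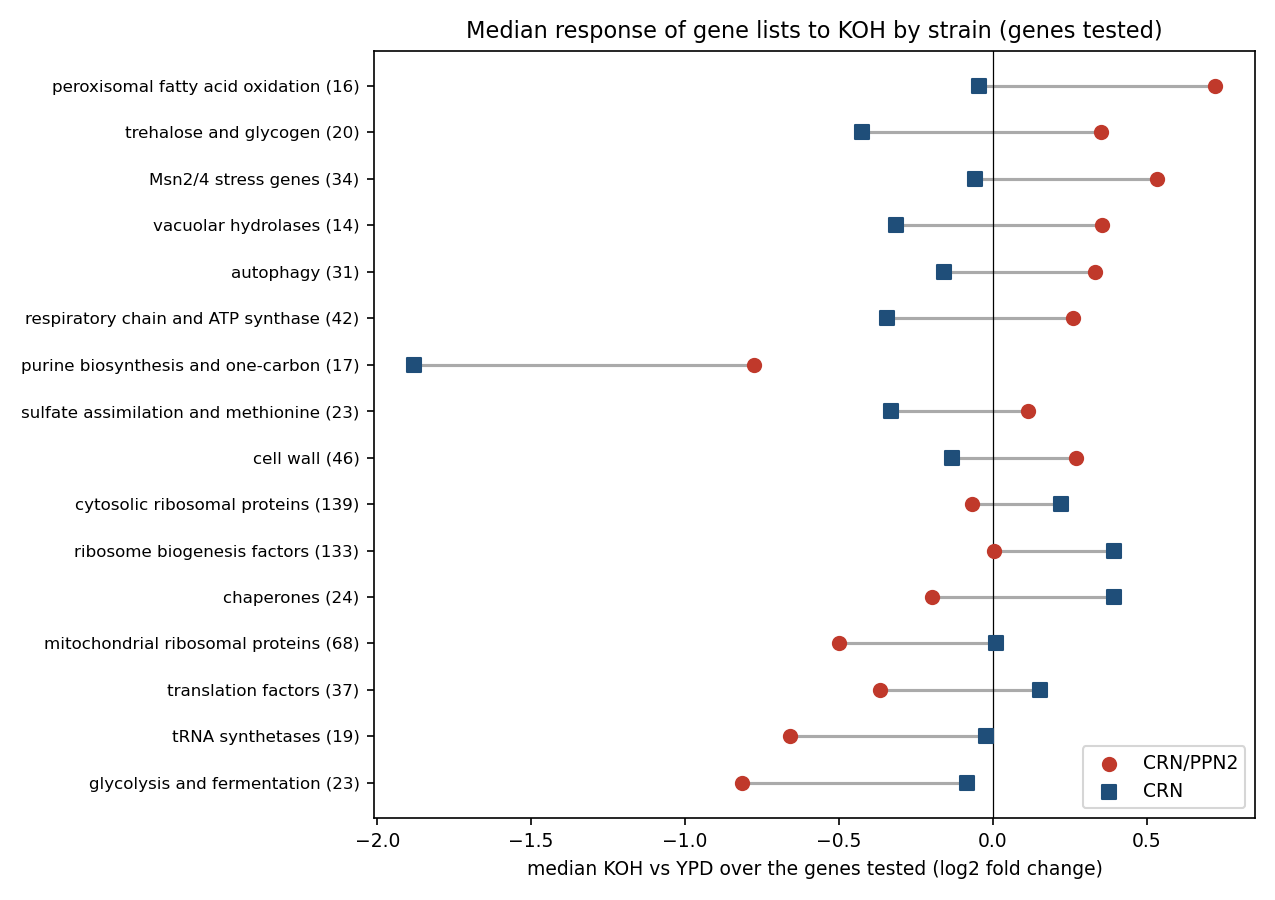
Median KOH vs. YPD log2 fold change over the tested genes of the main lists, with CRN/PPN2 as circles and CRN as squares and the number of genes tested beside each name. The glycolysis and fermentation list stands at -0.82 in CRN/PPN2 and -0.09 in CRN, and the purine and one-carbon list at -0.78 and -1.88.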

How the data were processed

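Poly(A) RNA was sequenced from 8 cultures, 2 per group, with a directional kit. STAR 2.7.6a was used by the authors for mapping to the R64 genome, and they deposited whole-number read counts per gene, without normalization. Which strand column was taken is not given in the sources used here, so overlapping and antisense genes are uncertain. The table holds 7127 genes, and each of its 8 columns belongs to 1 sample. The same counts deposited per sample were not used apart from the table.

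The filter of 10 CPM or more in 2 or more libraries kept 5430 genes. They were fitted with edgeR 4.0.16 under R 4.3.3, with the quasi-likelihood test, TMM scaling, 4 groups, a block for the replicate number, and Benjamini-Hochberg adjustment over all tested genes at 0.05. The block was used because the study's methods state that replicate numbers mark batches. Deviations of same-numbered libraries from their group means correlated at r = 0.0926 to 0.467 across genes, which are not independent replicates. SE is the absolute log2 value divided by the square root of F and is approximate. Per-library values are TMM-scaled CPM. The 4 groups served 3 contrasts, KOH vs. YPD in each strain and their difference, and both KOH contrasts enter that difference.

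The genes, the 50 gene lists, the classes and the motifs were chosen with earlier results of these data known, so the lists are described by counts and medians with no test. Named genes were the 5 with the largest absolute interaction in each direction, the 4 in each class and direction, up to 5 members of each list with the smallest adjusted p, and all genes that the study discusses. All but the last had to be called, have the same sign in both replicates and reach 20 CPM in the highest group, and not all are printed. MF(ALPHA)1, MF(ALPHA)2, STE3 and SAG1 were taken as α-cell markers, and MFA1, MFA2, STE2, BAR1, AGA2 and STE6 as a-cell markers. Promoters were read from the RefSeq R64 genome, and 5327 of the tested genes had one. Gene names came from the table and, for 189, from RefSeq.

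Alternatives were no replicate block, ComBat-seq counts (sva 3.50.0), DESeq2 1.42.0, RLE and upper quartile factors, library totals, no filter, filterByExpr, 50 CPM, thinning to the smallest library, an adjusted p of 0.01, and the omission of each library in turn. The fit was checked on simulated counts. Figures were drawn with matplotlib 3.10.9 in Python 3.11.15.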

Additional observations from a re-analysis of the deposited data

Results flagged for a closer look

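The interaction tests whether the strains differ in their KOH effect, and by edgeR's quasi-likelihood test 1203 genes were higher and 953 lower. The largest values among genes of at least 20 CPM were 4.81 for INO1, 4.57 for RNP1, 4.40 for YGL081W, 4.26 for SPR28 and 4.22 for PHO92. In the other direction they were -4.76 for BSC1, -3.22 for FLO11, -2.68 for PRM7, -2.40 for ALD6 and -2.05 for snR30. BSC1 was at -8.35 without the first CRN YPD library, and snR30 at -3.25 without the first CRN/PPN2 +KOH library. RNP1, YGL081W, SPR28 and PHO92 passed the filter only with the CRN/PPN2 +KOH libraries counted, where they were high. All 10 were picked from called genes with the same sign within both replicates, so that agreement was a condition of the choice and not a finding. Harvest time, washing, lysis and depth of the CRN/PPN2 +KOH libraries, and the plasmid with its URA3, cannot be told apart from an effect of PPN2 in these values. With 2 libraries per group no single library could be assessed as an outlier within its group.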

How the results depend on the processing

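Thinning all libraries to the smallest left 681 genes higher and 585 lower, and of the 1266 calls 1205 were among the 2156. Without the replicate block 614 were lower, and at an adjusted p of 0.01 548 were lower. By class, gained responses numbered 1020 after thinning. Lost ones numbered 72 without the block, 90 with DESeq2, 69 after thinning and 76 at 0.01. Amplified ones numbered 53 without the block, 248 with ComBat-seq counts, 90 with DESeq2, 35 after thinning and 53 at 0.01. Damped ones numbered 20 without the block, 19 after thinning and 19 at 0.01, and reversed ones 28, 30 and 34 in the same order, 186 with ComBat-seq counts and 45 with DESeq2. Lower genes with an absolute log2 of 1 or more numbered 347 with upper quartile factors and 132 at 50 CPM, where fewer genes were tested. The cause of the other changes was not tested. Leaving out single libraries gave 862 to 1203 higher and 611 to 977 lower genes, 1219 to 1391 gained, 37 to 220 lost, 28 to 268 amplified, 18 to 34 damped and 16 to 207 reversed, and 575 to 640 higher and 215 to 310 lower genes of absolute log2 1 or more. All calls shared with another setting had the same sign. Of the genes not called, the direction turned after thinning for MNC1 (-0.48), RIM101 (0.0349) and PHO87 (0.0849). When single libraries were left out, values ran from -0.109 to 0.66 for MNC1 (below 0 without the first CRN/PPN2 +KOH, second CRN/PPN2 YPD or first CRN +KOH library), from -0.422 to 0.0136 for RIM101 and -0.32 to 0.0243 for VPH1 (above 0 without the first CRN +KOH library and, for VPH1, the first CRN/PPN2 +KOH library), from -0.263 to 0.665 for PHM6 (below 0 without the first CRN/PPN2 +KOH library), and from -0.392 to 0.0172 for PHO89 (above 0 without the second CRN/PPN2 YPD library). With 2 libraries per group, leaving one out assumes that the lone sample varies like the other groups. At 796548 counts, 10 CPM equals few reads, so changes of weakly expressed genes were least well measured in CRN/PPN2 +KOH.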
